A study of Mus musculus with 6 samples.

Results

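Receptors for glutamate and for GABA, the main excitatory and inhibitory transmitters of the brain, were followed in mouse hippocampus after knockdown of Hepacam. The genes are 32 receptor subunits, found by matching a list of symbols to the Ensembl identifiers of the 29872 genes in the deposited tables, and all 32 were present. They are 15 ionotropic glutamate receptor genes, 6 metabotropic glutamate receptor genes, 9 GABA-A receptor genes and 2 GABA-B receptor genes. Other subunits of these families were not analysed here.

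RNA was sequenced from hippocampus of C57BL/6J mice. The shHepaCAM group (3 libraries) has the genotype HepaCAM knockdown, made with AAV, an adeno-associated viral vector, put into CA1 on both sides of the brain to deplete hepaCAM, a cell adhesion molecule of astrocytes. The shControl group (3 libraries) has the genotype WT. The same AAV treatment text stands with all 6 libraries, and no label says which vector, if any, the control mice received. No source used here gives age, sex, the promoter that drives the hairpin or the cell types it reaches. The values are RPKM, which corrects read numbers for the length of a gene and the depth of a library. Ranks, shares and ratios between genes are given in RPKM. They depend on the gene length used, which need not be that of the transcripts expressed. The depth was 15816576 to 16384938 reads in the shHepaCAM libraries and 14903198 to 17341841 reads in the shControl libraries. The labels leave unsaid whether each library is a different mouse, so the p-values reflect library-to-library spread, which could be technical.

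Ionotropic receptors are channels of several subunits, opened by the transmitter, and the subunit mix sets their speed, conductance and place at or away from the synapse. AMPA receptors carry most fast excitation in the hippocampus, and NMDA receptors admit calcium and trigger synaptic plasticity. GABA-A receptors pass chloride and inhibit, while metabotropic glutamate and GABA-B receptors act through G proteins.

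Hepacam itself had 24.4, 22.6 and 20.9 RPKM in shHepaCAM replicates 1, 2 and 3, against 37.3, 33.4 and 35.9 RPKM in shControl replicates 1, 2 and 3. Every shHepaCAM library was below every shControl library, and in limma the adjusted p was 0.00924 (0.0526 without shControl replicate 3). Cell types and regions were followed with 14 marker lists, and no marker of any list was at 0 in any library. This held for thalamus and habenula, cortex and striatum markers as for hippocampal ones, so it cannot check the labelled tissue. Of the libraries, shHepaCAM replicate 3 and shControl replicate 1 stood apart: their 8 choroid plexus markers summed to 32.5 and 71.3 RPKM, against 1713 to 4316 RPKM in the other 4. Microglia markers summed to 360 to 447 RPKM in shHepaCAM and 205 to 247 RPKM in shControl libraries, and 4 of 8 rose. The 10 pan-neuronal markers summed to 869 to 1078 RPKM in shHepaCAM and 1277 to 1313 RPKM in shControl libraries. Of these, 3 fell, namely Snap25, Tubb3 and Slc17a7. The 6 markers of CA1 pyramidal neurons went the other way, with sums of 168 to 212 RPKM in shHepaCAM and 155 to 158 RPKM in shControl libraries. The 11 markers of CA2 and CA3 pyramidal neurons summed to 125 to 173 RPKM in shHepaCAM and 157 to 167 RPKM in shControl libraries. In both lists 0 markers were called. The part of these shifts in the results that follow was not tested. In whole tissue, fewer cells of a type and less RNA per cell cannot be told apart.

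Of the 31 subunits tested, 1 fell (Grin3a), 0 rose and 30 did not pass an adjusted p of 0.05 in limma on log2(RPKM + 1). Grm8, under the filter of a mean of 1 RPKM, was not tested. Across all 13864 genes tested, 6.07% were called, 4.23% as higher and 1.84% as lower, and the share called among the subunits was 3.23%. That split depends on scaling, since 587 genes were higher and 255 lower as deposited, but 336 higher and 347 lower after scaling libraries to their median gene. At an unadjusted p under 0.05, 1 subunit was higher and 5 were lower, 19.4% of the subunits against 24.2% of all genes. With limma-voom on whole reads, 1 was higher (Gabrd) and 1 lower (Grin3a), and every other subunit named in the following as not passing limma did not pass limma-voom either.

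The median log2 change was -0.04 over the subunits tested and 0.05 over all genes. For 23 of 31 subunits (74.2%) the 95% interval of the change lay within 0.5 on either side of 0 on the log2(RPKM + 1) scale, as it did for 70.0% of all genes. The range of estimates ran from -0.48 for Grin3a to 0.52 for Gabrd. In 8 subunits all shHepaCAM libraries were below all shControl libraries (25.8%, against 10.7% of all genes tested). In 1, Gabrd, they were all above (3.23%, against 20.9% of all genes tested). The subunits were chosen with earlier results of these data known, so these shares only describe the list. Under median-gene scaling there were 11 below (35.5%, against 18.7% of all genes tested) and 1 above (3.23%, against 12.5% of all genes tested). This use of the scaling for counts of non-overlapping groups was added after seeing the data. The estimates of Gria2, Gria4 and Gabrb2 changed sign under quantile normalization and under that scaling, and those of Gabra4 and Gabra5 under that scaling.

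**Figure D1:**
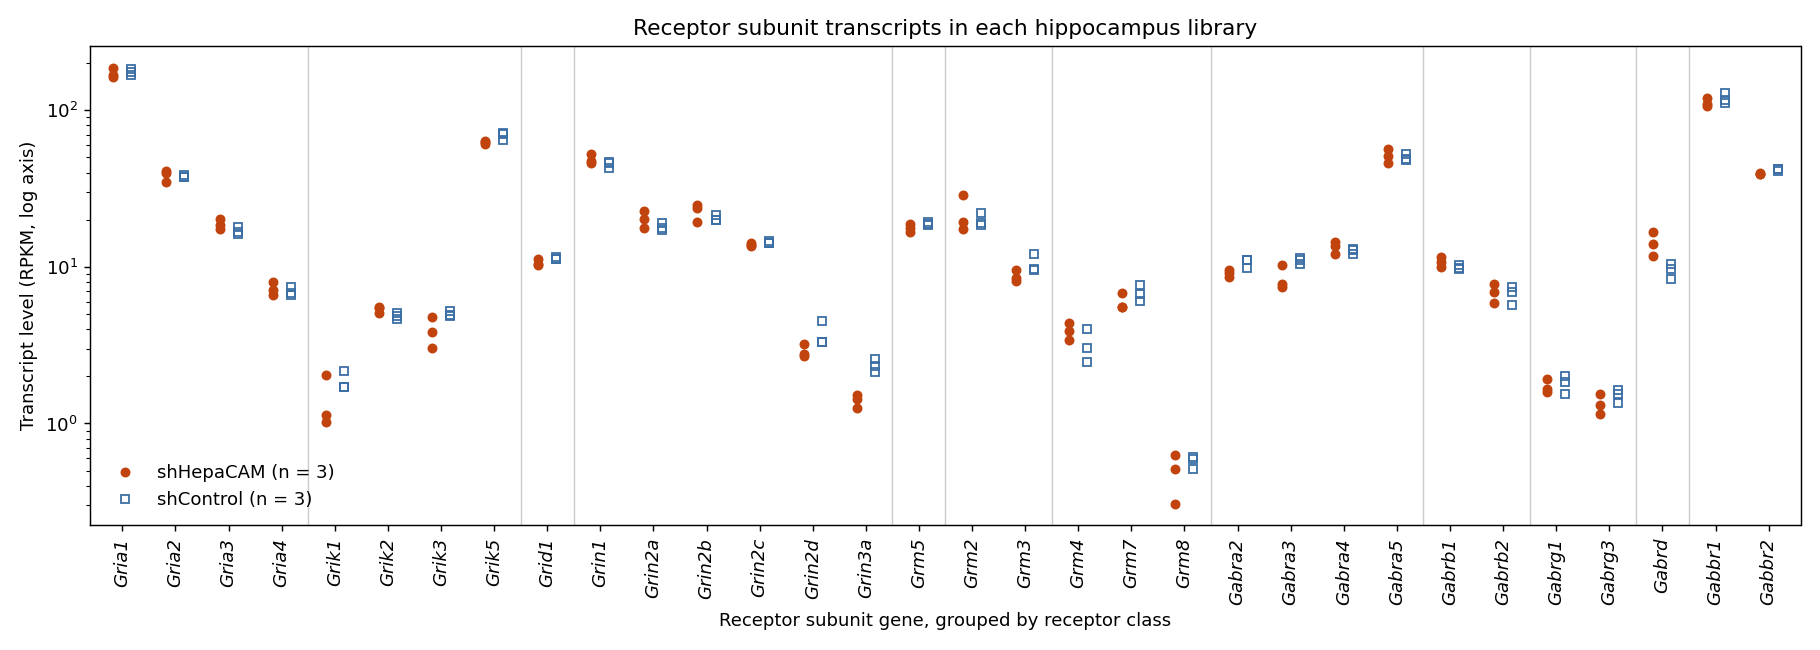
Level of each of the 32 receptor subunit genes in RPKM (log axis), by receptor class, with 3 shHepaCAM libraries as filled circles and 3 shControl libraries as open squares. Gria1 and Gabbr1 stand highest and Grm8 lowest in both groups, and the groups overlap for most genes.

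**Figure D2:**
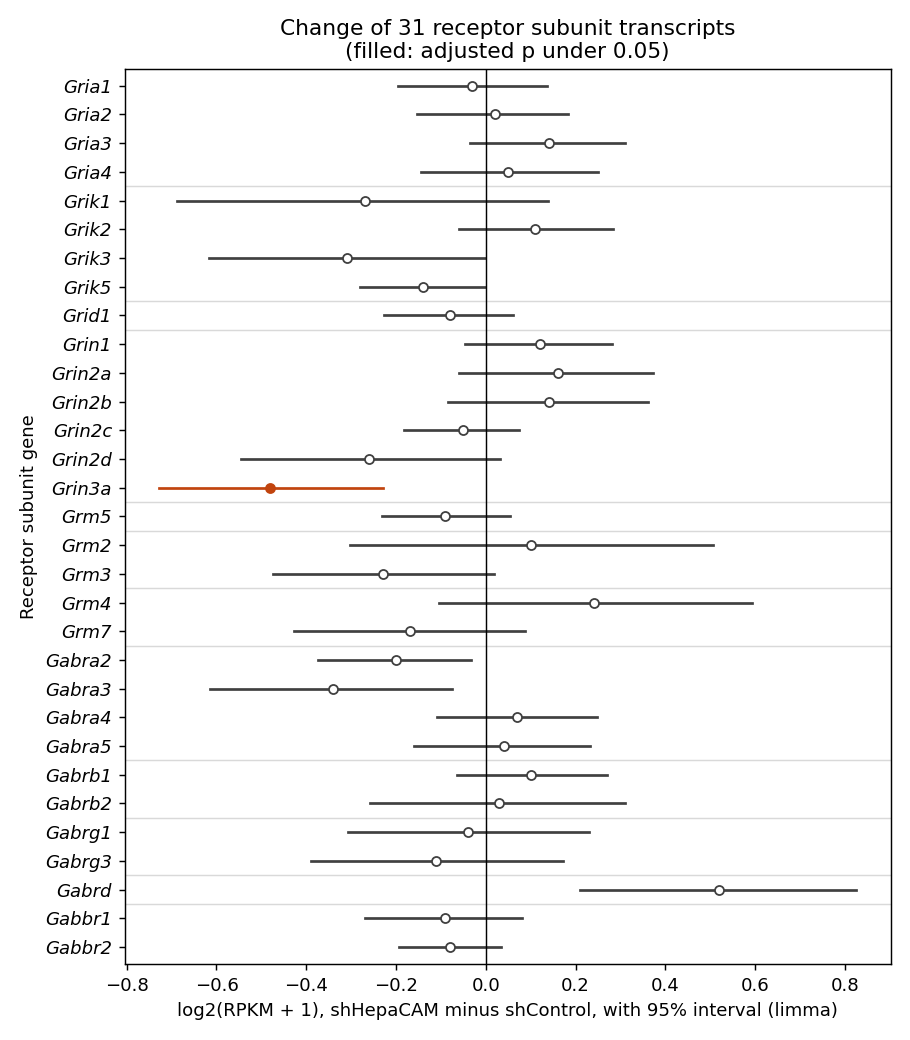
Difference between shHepaCAM and shControl for the 31 subunits tested, on the log2(RPKM + 1) scale, with 95% intervals from limma. Grin3a (-0.48) is the filled point past an adjusted p of 0.05, and Gabrd (0.52) is the highest.

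Of the 4 AMPA receptor subunits, 0 passed in limma, and 0 had an unadjusted p under 0.05. Gria1, which is delivered to synapses during potentiation, was the most abundant receptor transcript. It had 168, 164 and 187 RPKM in shHepaCAM libraries, against 184, 169 and 176 RPKM in shControl libraries, and the ranges overlapped. Its log2 change was -0.03 with a 95% interval of -0.196 to 0.137 (limma adjusted p = 0.829). Gria2, whose edited protein keeps calcium out of the channel, had 34.7, 39.8 and 40.7 RPKM in shHepaCAM and 38.6, 37.3 and 37.7 RPKM in shControl libraries. The shHepaCAM libraries lay on both sides of the shControl libraries, and the 95% interval ran from -0.153 to 0.183 (limma adjusted p = 0.915). Gria3, which pairs with Gria2, averaged 18.8 ± 1.44 RPKM in shHepaCAM and 17.0 ± 0.837 RPKM in shControl libraries (SD, n = 3 each; limma adjusted p = 0.298). Gria4, which is typical of interneurons in the adult, averaged 7.26 ± 0.671 RPKM in shHepaCAM and 6.95 ± 0.437 RPKM in shControl libraries (SD, n = 3 each; limma adjusted p = 0.733).

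The mix of AMPA subunits is given by shares and ratios of RPKM, which depend on the gene lengths used. In shHepaCAM replicate 1, Gria1 held 16023 reads and Gria2 8521 reads. Gria1 made up 72.8% ± 1.44 of the summed AMPA level in shHepaCAM and 74.0% ± 0.236 in shControl libraries (SD, n = 3 each). The Gria1 to Gria2 ratio of RPKM was 4.84, 4.12 and 4.60 in shHepaCAM and 4.76, 4.53 and 4.67 in shControl libraries. The shHepaCAM values spread on both sides of the shControl values. An exact two-sided permutation test of the log2 ratio gave p = 0.8, where 3 libraries against 3 allow no p below 0.1.

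Kainate receptor subunits, which act on both sides of the synapse and are dense at mossy fibres, had lower estimates for 3 of 4 genes, and 0 of 4 passed in limma (2 at an unadjusted p under 0.05, both lower). Grik5, a high-affinity subunit that forms channels only with a partner such as Grik2, was the most abundant. It had 62.4, 61.0 and 63.8 RPKM in shHepaCAM libraries, against 64.7, 70.5 and 71.7 RPKM in shControl libraries. The groups did not overlap, although shHepaCAM replicate 3 and shControl replicate 1 lay close together, and the log2 change was -0.14 (SE 0.06, limma adjusted p = 0.203). Grik3, a subunit of presynaptic kainate receptors, had 3.82, 4.79 and 3.05 RPKM in shHepaCAM and 5.2, 4.88 and 4.9 RPKM in shControl libraries. All shHepaCAM values were lower, with shHepaCAM replicate 2 close to the controls, and the change was -0.31 (SE 0.13, limma adjusted p = 0.203). Grik1, found mainly in interneurons, had 2.04, 1.14 and 1.02 RPKM in shHepaCAM and 1.71, 1.72 and 2.15 RPKM in shControl libraries, with overlap. Grik2 averaged 5.36 ± 0.283 RPKM in shHepaCAM and 4.88 ± 0.218 RPKM in shControl libraries (SD, n = 3 each; limma adjusted p = 0.392). The 4 genes, most of whose level is Grik5, summed to 73.8, 72.5 and 72.9 RPKM in shHepaCAM and 76.8, 82.0 and 83.4 RPKM in shControl libraries. Grid1, a delta receptor that organises synapses through cerebellins, averaged 10.7 ± 0.542 RPKM in shHepaCAM and 11.3 ± 0.121 RPKM in shControl libraries (SD, n = 3 each; limma adjusted p = 0.452).

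Among NMDA receptor subunits the transcript that fell was Grin3a, which encodes a glycine-binding subunit that lowers the calcium permeability of the receptor and is best known from young synapses. Grin3a (ENSMUSG00000039579) had 1.51, 1.43 and 1.26 RPKM in shHepaCAM libraries, against 2.13, 2.32 and 2.57 RPKM in shControl libraries. All shHepaCAM libraries were below all shControl libraries, with a ratio of group means of 0.598. These levels rest on 294, 283 and 253 reads in shHepaCAM and 448, 494 and 471 reads in shControl libraries. The log2 change was -0.48 (SE 0.11, 95% interval -0.727 to -0.228, limma adjusted p = 0.0475). The estimate stayed between -0.74 and -0.43 over 17 alternatives, but the call was kept in only 7 of them, with adjusted p-values of 0.00884 to 0.174. Leaving out any single library ended it: the adjusted p was 0.061, 0.0853 and 0.112 without shHepaCAM replicates 1, 2 and 3 and 0.0938, 0.151 and 0.174 without shControl replicates 1, 2 and 3. Without both libraries low in choroid plexus markers the change was -0.48 (adjusted p = 0.16). Interneuron markers, which include the Sst-expressing cells where Grin3a is enriched, summed to 508 to 745 RPKM in shHepaCAM and 681 to 713 RPKM in shControl libraries. Their part in the Grin3a result was not tested.

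Of the other NMDA subunits, 0 passed in limma and 0 had an unadjusted p under 0.05. Grin1, the obligatory subunit, had 46.3, 47.7 and 52.9 RPKM in shHepaCAM and 46.5, 42.6 and 45.9 RPKM in shControl libraries, with overlap. Its log2 change was 0.12 (95% interval -0.047 to 0.281, limma adjusted p = 0.35). An antisense gene, Grin1os, overlaps its exons, and without strand information their reads cannot be told apart. Grin2a and Grin2b encode the glutamate-binding subunits whose balance shifts from Grin2b towards Grin2a as the hippocampus matures. Grin2a had 17.8, 20.1 and 22.7 RPKM in shHepaCAM and 19.0, 17.1 and 17.8 RPKM in shControl libraries (limma adjusted p = 0.344). Grin2b had 19.4, 23.8 and 24.8 RPKM in shHepaCAM and 21.4, 19.9 and 20.0 RPKM in shControl libraries (limma adjusted p = 0.414). Both were higher in shHepaCAM replicates 2 and 3 than in any shControl library, and neither was in shHepaCAM replicate 1. The Grin2a to Grin2b ratio was 0.917, 0.841 and 0.914 in shHepaCAM and 0.889, 0.859 and 0.886 in shControl libraries. An exact two-sided permutation test of the log2 ratio gave p = 0.6, with 0.1 the smallest p possible.

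Grin2c and Grin2d had lower values in all shHepaCAM libraries than in all shControl libraries. Grin2c, which astrocytes of the forebrain also express, averaged 13.8 ± 0.319 RPKM in shHepaCAM and 14.4 ± 0.217 RPKM in shControl libraries (SD, n = 3 each; limma adjusted p = 0.576). Grin2d, a slow subunit of interneurons, had 3.22, 2.78 and 2.70 RPKM in shHepaCAM and 4.49, 3.29 and 3.29 RPKM in shControl libraries. Its change was -0.26 (95% interval -0.545 to 0.031, limma adjusted p = 0.252), and shControl replicate 1 stood above the other controls. Grin3a made up 1.28% ± 0.21 of the summed level of the 6 NMDA genes in shHepaCAM and 2.26% ± 0.254 in shControl libraries (SD, n = 3 each). The class sum was 110 ± 7.97 RPKM in shHepaCAM and 104 ± 4.21 RPKM in shControl libraries (SD, n = 3 each).

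Metabotropic glutamate receptors gave 0 calls among 5 genes tested in limma (0 at an unadjusted p under 0.05, and 0 with limma-voom). Grm5, the Gq-coupled receptor of pyramidal neurons and young astrocytes, had 16.8, 18.7 and 17.8 RPKM in shHepaCAM and 18.9, 18.5 and 19.4 RPKM in shControl libraries, with overlap. Its interval was -0.231 to 0.054 (limma adjusted p = 0.414). Grm2, a presynaptic autoreceptor of mossy fibres, had 19.4, 28.8 and 17.5 RPKM in shHepaCAM and 22.0, 19.2 and 18.5 RPKM in shControl libraries. The shHepaCAM replicate 2 value was the highest and replicate 3 the lowest of the 6, and the log2 change was 0.10 with all libraries and -0.10 without shHepaCAM replicate 2. Grm3, the other group II receptor, expressed by astrocytes as well as neurons, had 8.52, 9.55 and 8.17 RPKM in shHepaCAM and 12.1, 9.53 and 9.68 RPKM in shControl libraries. Its change was -0.23 (limma adjusted p = 0.236), and shHepaCAM replicate 2 lay within the range of the controls. Of the presynaptic group III receptors, Grm4 averaged 3.88 ± 0.492 RPKM in shHepaCAM and 3.16 ± 0.772 RPKM in shControl libraries (SD, n = 3 each; limma adjusted p = 0.361). Grm7, which sits in the release zone, averaged 5.96 ± 0.774 RPKM in shHepaCAM and 6.83 ± 0.801 RPKM in shControl libraries (SD, n = 3 each; limma adjusted p = 0.387). Grm8 was at 0.511, 0.626 and 0.308 RPKM in shHepaCAM and 0.614, 0.594 and 0.515 RPKM in shControl libraries, on 50 to 104 reads a library.

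GABA-A receptor genes gave 0 calls among 9 in limma, with 1 higher and 2 lower at an unadjusted p under 0.05 and 1 higher (Gabrd) in limma-voom. Gabrd encodes the delta subunit of receptors outside the synapse that carry tonic inhibition, mainly in dentate granule cells and some interneurons. Gabrd (ENSMUSG00000029054) had 11.8, 13.9 and 16.6 RPKM in shHepaCAM libraries, against 9.74, 10.5 and 8.31 RPKM in shControl libraries. Every shHepaCAM library was above every shControl library, with a ratio of group means of 1.48. The log2 change was 0.52 (SE 0.13, 95% interval 0.21 to 0.824), with an unadjusted p of 0.00512 and a limma adjusted p of 0.0645. It passed in 4 of 18 alternatives, among them leaving out shHepaCAM replicate 1 (change 0.63, adjusted p = 0.038) and testing protein-coding genes only (adjusted p = 0.0415). Adjusted p-values over all alternatives ran from 0.038 to 0.203. Dentate granule markers summed to 113 to 142 RPKM in shHepaCAM and 113 to 142 RPKM in shControl libraries, and 1 of 8 (Trpc6) rose. Dsp and Tdo2 were lower in all shHepaCAM libraries but not called (limma adjusted p = 0.0604 and 0.43). C1ql2 alone averaged 72.4 RPKM in shHepaCAM and 76.4 RPKM in shControl libraries. The part of these markers in the Gabrd result was not tested. Gabra4, the alpha subunit that joins the delta subunit in granule cells, had 12.1, 14.4 and 13.5 RPKM in shHepaCAM and 12.1, 13.0 and 12.8 RPKM in shControl libraries. Its interval was -0.108 to 0.248 (limma adjusted p = 0.612), and the groups overlapped.

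**Figure D3:**
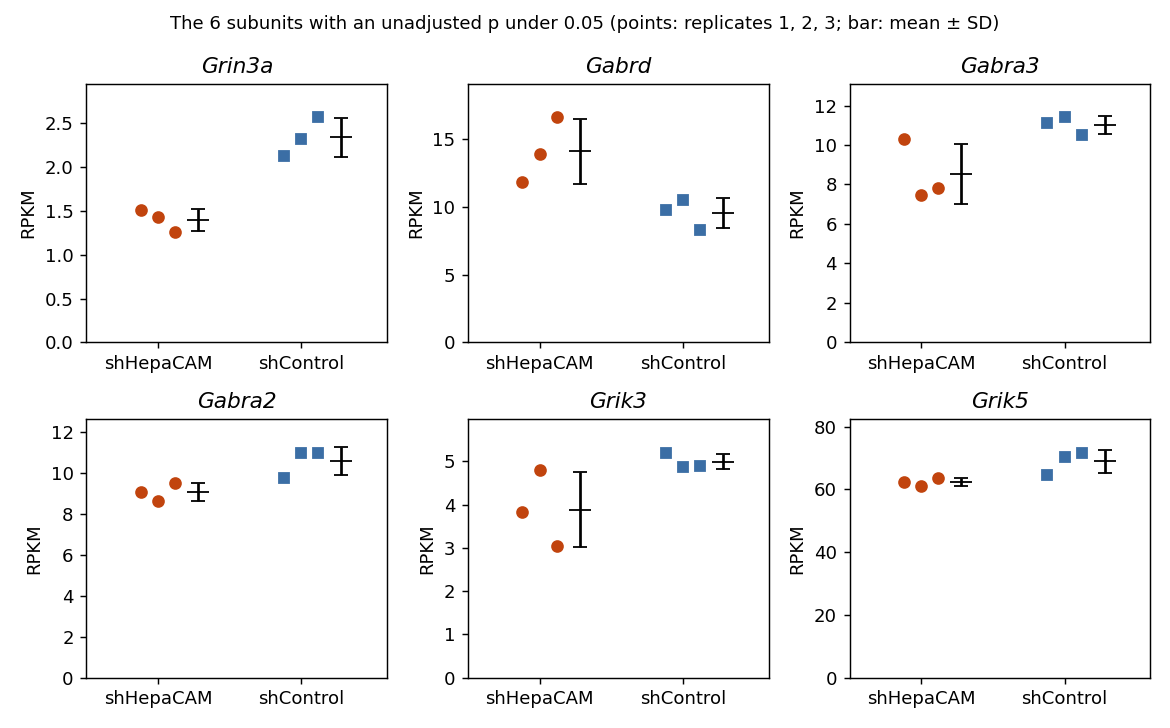
RPKM in each library for the 6 subunits with an unadjusted p under 0.05, shHepaCAM left (circles) and shControl right (squares), with mean ± SD as a bar (n = 3). Grin3a, Gabra3, Gabra2, Grik3 and Grik5 are lower and Gabrd higher in all 3 shHepaCAM libraries, while Grin3a alone passes an adjusted p of 0.05.

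Of the alpha subunits of GABA-A receptors, Gabra3 and Gabra2 had lower values in all shHepaCAM libraries. Gabra5, which serves tonic inhibition in pyramidal neurons, was the most abundant alpha subunit. It had 51.3, 46.1 and 57.0 RPKM in shHepaCAM and 52.5, 48.4 and 49.2 RPKM in shControl libraries. The shHepaCAM libraries held both the lowest and the highest value, and the interval of the change was -0.161 to 0.233 (limma adjusted p = 0.824). Gabra3 had 10.3, 7.47 and 7.82 RPKM in shHepaCAM and 11.1, 11.4 and 10.5 RPKM in shControl libraries. All shHepaCAM values were lower, but replicate 1 came close to the controls. The change was -0.34 (SE 0.11, limma adjusted p = 0.126), and without shHepaCAM replicate 1 it was -0.47 (adjusted p = 0.0232), the only one of 18 alternatives in which it passed. Gabra2, found at the axon initial segment of pyramidal neurons, had 9.09, 8.65 and 9.51 RPKM in shHepaCAM and 9.78, 11.0 and 11.0 RPKM in shControl libraries. These groups did not overlap either, with a change of -0.20 (SE 0.07, limma adjusted p = 0.148).

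The beta and gamma subunits gave overlapping groups. Gabrb1 averaged 10.8 ± 0.82 RPKM in shHepaCAM and 9.96 ± 0.291 RPKM in shControl libraries, and Gabrb2 averaged 6.83 ± 0.976 RPKM in shHepaCAM and 6.68 ± 0.865 RPKM in shControl libraries (SD, n = 3 each; limma adjusted p = 0.421 and 0.914). Gabra4 and Gabrb1 lie next to each other and overlap in exons on opposite strands, so part of their reads cannot be told apart. Exons of Grin2b, Grin2d, Grm2, Grm7, Gabra5 and Gria4 also overlap those of other genes with deposited values, and those of Grin3a, Gabrd and Gabra3 do not. Overlap with annotated genes that lack deposited values was not listed. Gabrg1, a gamma subunit shared with glia, averaged 1.72 ± 0.183 RPKM in shHepaCAM and 1.8 ± 0.226 RPKM in shControl libraries (SD, n = 3 each; limma adjusted p = 0.863). Gabrg3 averaged 1.34 ± 0.201 RPKM in shHepaCAM and 1.52 ± 0.144 RPKM in shControl libraries (SD, n = 3 each; limma adjusted p = 0.616). As shares of the 9 listed GABA-A genes, Gabrd held 12.0% ± 1.5 in shHepaCAM and 8.36% ± 0.897 in shControl libraries, and Gabra3 held 7.32% ± 1.52 in shHepaCAM and 9.69% ± 0.326 in shControl libraries (SD, n = 3 each). The sum of the 9 genes was 117 ± 6.72 RPKM in shHepaCAM and 114 ± 2.56 RPKM in shControl libraries (SD, n = 3 each).

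GABA-B receptors are pairs of Gabbr1, which binds GABA, and Gabbr2, which couples to G proteins. Gabbr1 was the second most abundant receptor transcript, with 109, 106 and 119 RPKM in shHepaCAM and 129, 112 and 116 RPKM in shControl libraries. The groups overlapped, and the interval was -0.269 to 0.08 (limma adjusted p = 0.479). Gabbr2 had 39.4, 39.7 and 39.4 RPKM in shHepaCAM and 42.1, 41.2 and 42.2 RPKM in shControl libraries. The libraries of each group lay close together and the groups did not overlap, with a change of -0.08 (95% interval -0.193 to 0.033, limma adjusted p = 0.352). The Gabbr1 to Gabbr2 ratio was 2.77, 2.67 and 3.02 in shHepaCAM and 3.05, 2.73 and 2.75 in shControl libraries (exact two-sided permutation test of the log2 ratio, p = 0.8).

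**Figure D4:**
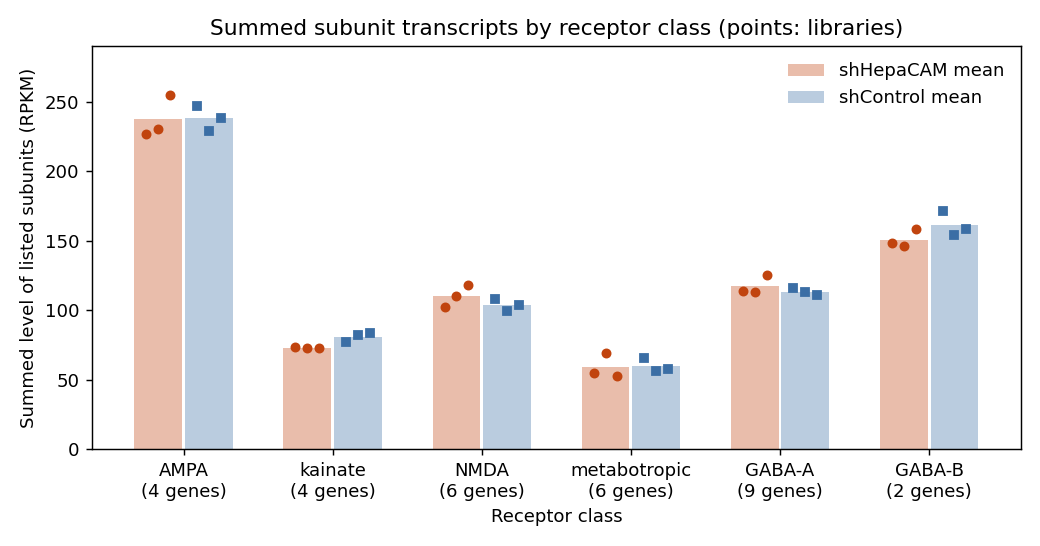
Summed RPKM of the listed subunits of each receptor class, bars for group means and points for libraries, shHepaCAM left of shControl. AMPA sums average 237 and 238 RPKM and NMDA sums 110 and 104 RPKM in shHepaCAM and shControl libraries, and the kainate sums (73.1 and 80.7 RPKM) do not overlap.

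Genes that assemble, anchor or serve these receptors were followed in 7 lists with 51 genes in the files, all tested. Of these, 2 rose and 6 fell in limma (15.7%, against 6.07% of all genes), and their median log2 change was -0.04. The lists were chosen with earlier results of these data known, so this share cannot show an excess among partner genes. The sum of the pan-neuronal markers given above was lower in the same shHepaCAM libraries, with 3 of the 10 called. Estimates were above 0 for Rbfox3 (0.01) and Nefm (0.10) and below 0 for the rest. The part of these markers in the partner calls was not tested. In the list of AMPA trafficking and clustering, 1 of 8 rose and 2 fell, all 3 of them neuronal pentraxins, which gather AMPA receptors at synapses. Nptx1 had 91.8, 70.9 and 66.8 RPKM in shHepaCAM libraries, against 152, 160 and 157 RPKM in shControl libraries, and its estimate was -1.04 on the log2 scale (SE 0.12; adjusted p = 0.00777 in limma). Nptx2, the activity-regulated member, had 30.7, 50.6 and 36.3 RPKM in shHepaCAM and 18.6, 16.5 and 17.8 RPKM in shControl libraries, a change of 1.08 (SE 0.16, limma adjusted p = 0.0187). Nptxr, the membrane-bound receptor of the family, had 149, 117 and 115 RPKM in shHepaCAM and 167, 192 and 175 RPKM in shControl libraries, a change of -0.49 (SE 0.11, limma adjusted p = 0.0488). The groups did not overlap for any of the 3, and Nptx1 and Nptx2 changed in opposite directions.

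Of 12 AMPA auxiliary subunits, 1 rose and 2 fell. Estimates ran from -0.53 to 0.88, and the highest was not called (limma adjusted p = 0.0627). Cacng3, a transmembrane AMPA regulatory protein, had 34.2, 35.7 and 39.5 RPKM in shHepaCAM and 25.6, 26.1 and 27.6 RPKM in shControl libraries (log2 change 0.45, limma adjusted p = 0.0195). Shisa6, which slows desensitization and holds AMPA receptors at synapses, had 15.6, 12.9 and 15.7 RPKM in shHepaCAM and 20.9, 20.1 and 24.2 RPKM in shControl libraries (log2 change -0.53, limma adjusted p = 0.0308). Shisa9, another auxiliary protein of the same family, had 9.06, 8.97 and 9.84 RPKM in shHepaCAM and 12.1, 11.6 and 11.4 RPKM in shControl libraries (log2 change -0.30, limma adjusted p = 0.0402). In each of these, no library of one group reached the range of the other, although the AMPA subunits themselves were not called.

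Among 15 scaffolds of the postsynaptic density, Homer3, which links group I metabotropic receptors to calcium stores, fell to 12.0, 9.39 and 10.2 RPKM in shHepaCAM libraries, against 15.3, 13.8 and 15.3 RPKM in shControl libraries (log2 change -0.46, limma adjusted p = 0.0388). No other scaffold passed in limma or in limma-voom. Over all 15, 5 were higher and 2 lower at an unadjusted p under 0.05, which is 46.7% against 24.2% of all genes. The list was chosen with earlier results of these data known, so this share only describes it. The median log2 change was 0.12, against 0.05 over all genes. Of 8 genes of GABA-A anchoring, 0 passed in limma or in limma-voom (1 higher and 1 lower at an unadjusted p under 0.05), and the lowest p was that of Gphn, the gephyrin scaffold, with 17.9, 19.6 and 18.4 RPKM in shHepaCAM and 15.7, 15.8 and 16.0 RPKM in shControl libraries (limma adjusted p = 0.0717). Neto2, a kainate auxiliary subunit and the only 1 of 2 listed that was matched, averaged 4.66 ± 0.646 RPKM in shHepaCAM and 6.04 ± 0.529 RPKM in shControl libraries (SD, n = 3 each; limma adjusted p = 0.132). Of 3 GABA-B auxiliary genes, 0 passed in limma or in limma-voom and 0 at an unadjusted p under 0.05. Kctd8 was the lowest by p, at 0.959 ± 0.227 RPKM in shHepaCAM and 1.39 ± 0.199 RPKM in shControl libraries (SD, n = 3 each; limma adjusted p = 0.257). Of 4 uptake genes, Slc1a2, the astrocyte glutamate transporter, fell to 134, 135 and 137 RPKM in shHepaCAM libraries, against 182, 174 and 168 RPKM in shControl libraries (log2 change -0.37, limma adjusted p = 0.0181). Estimates of all 4 were below 0, from -0.65 to -0.09, and only Slc1a2 was called.

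These calls depend on single libraries to different degrees, as do calls over all genes. Over all genes, 842 were called with all libraries, and 867, 421 and 328 without shHepaCAM replicates 1, 2 and 3. Without shControl replicates 1, 2 and 3 the counts were 235, 126 and 98. Nptx1 kept its call in 17 of 18 alternatives and lost it without both libraries low in choroid plexus markers (change -0.97, adjusted p = 0.0513). Nptx2, Cacng3 and Slc1a2 kept theirs in 12, 11 and 12 of 18, and lost it without any 1 shControl library, with adjusted p-values of 0.0529 to 0.0798, 0.066 to 0.0853 and 0.0683 to 0.0858. Shisa6, Homer3 and Nptxr kept theirs in 10, 8 and 7 of 18. Each passed without shHepaCAM replicate 1 and failed without any 1 of the other 5 libraries, with adjusted p-values of 0.0586 to 0.112, 0.0792 to 0.139 and 0.0972 to 0.159. Without both libraries low in choroid plexus markers, 0 of the 8 passed, and 104 genes were called over all genes. Shisa9 kept its call in 8 of 18 and lost it with any 1 library left out (adjusted p of 0.0603 to 0.132).

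**Figure D5:**
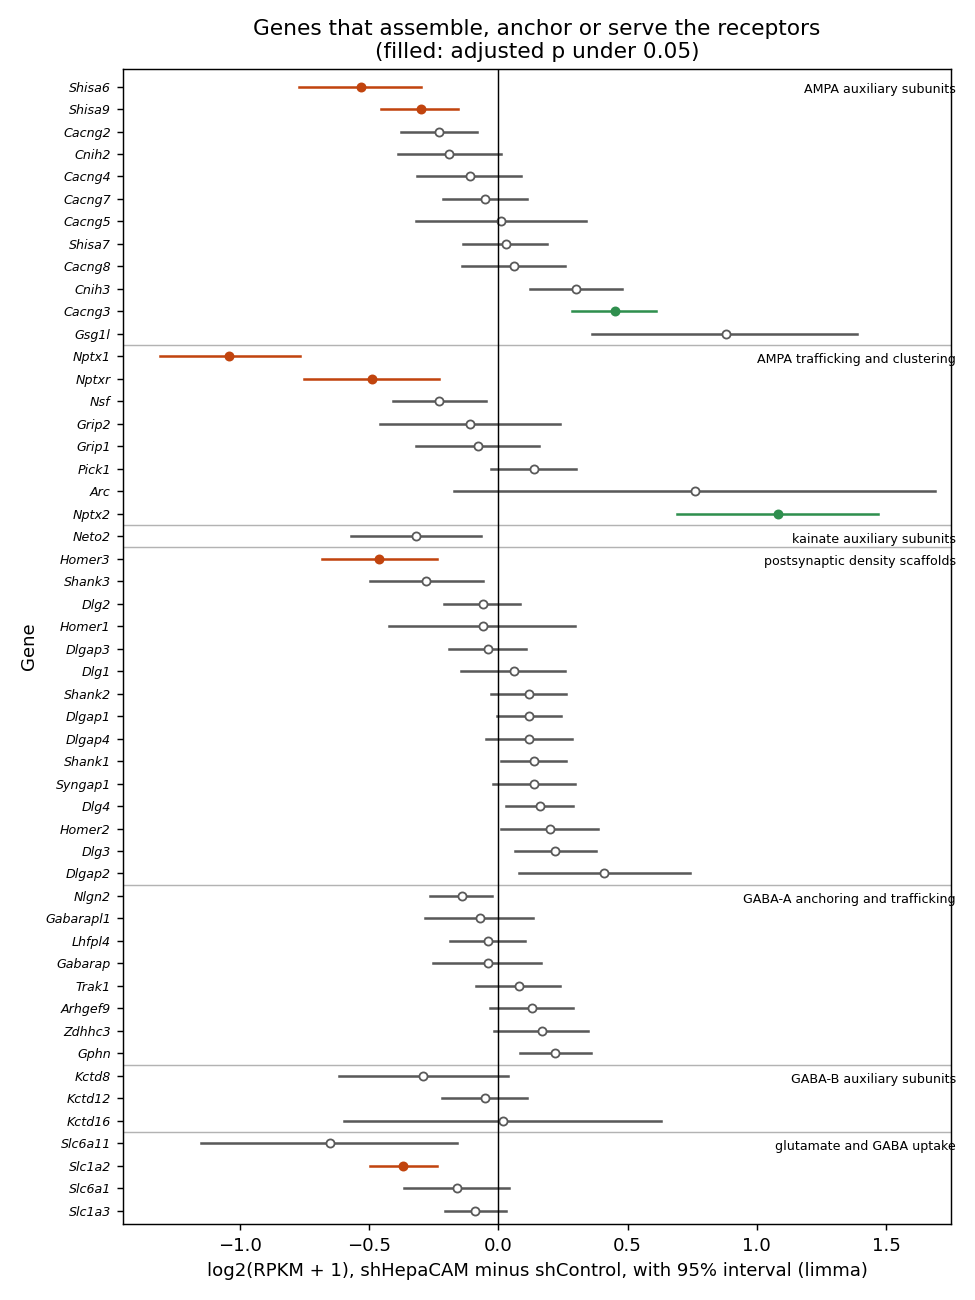
Difference between shHepaCAM and shControl for 51 genes that assemble, anchor or serve the receptors, on the log2(RPKM + 1) scale with 95% intervals from limma, grouped by list. Filled points pass an adjusted p of 0.05, with Nptx1 (-1.04) the lowest and Nptx2 (1.08) the highest.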

How the data were processed

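Each library has 1 deposited file of RPKM values, made by the authors. The tools named are TopHat2 2.0.12 and Bowtie2 2.0.6 and the genome mm39, per the submitters' processing notes. The counter, annotation and strand setting: not given in the sources used here. Symbols and exon lengths were taken from GENCODE M21 (a different build, hence no coordinates); 29805 of 29872 identifiers matched. Depth was worked out from the steps of the RPKM values, and 91.9% of genes with an annotated length came out as whole reads within 0.01 read in every library.

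Groups were compared with limma 3.58.1 (R 4.3.3, trend of variance on level), applied to log2(RPKM + 1) values. It covered the 13864 genes whose mean reached 1 RPKM, with Benjamini-Hochberg adjustment over all of them and a threshold of 0.05. The 95% intervals come from this fit, so they reflect the spread between libraries. Fold changes on this scale understate the change of low genes, such as Grin3a. Single ratios were tested with exact permutation tests (scipy 1.17.1). The fit was tested on simulated data. No pair of libraries agreed within sampling noise. The lowest chi-square per degree of freedom was 3.71, between shControl replicates 2 and 3. The next lowest was 10.6, between shControl replicates 1 and 3, and the highest was 33.3.

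The subunits, the 7 partner lists and the marker lists were chosen with earlier results of these data known. Named are all subunits and, of each partner list, the genes past the threshold or else the one with the smallest p. Alternatives changed the normalization, filter, pseudocount, variance model, weights, replicate block, covariate (log2 Ttr), gene class, unit (limma-voom on whole reads) and the libraries used.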

Additional observations from a re-analysis of the deposited data

How the results depend on the processing

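No result changed direction with a call. The estimate for Hepacam lay between -0.72 and -0.54 and passed in 16 of 18 alternatives: it did not pass without both libraries low in choroid plexus markers (-0.54, limma adjusted p = 0.0695) or without shControl replicate 3, and with 1 library left out it ranged over -0.68 to -0.58. The count of subunits higher, 0 as reported, was 1 with the filter at 5 RPKM, limma-voom, protein-coding genes only or a threshold of 0.1, and 0 to 1 with 1 library left out. The count lower, 1 as reported, was 0 with no filter, the filter at 5 RPKM (which leaves Grin3a out), both libraries out, log2 Ttr as covariate or a threshold of 0.01, and 0 to 1 with 1 library left out; the 1 without shHepaCAM replicate 1 was Gabra3, not Grin3a. The median of the subunits was -0.09 with quantile normalization, -0.12 with median-gene scaling and 0.02 with the filter at 5 RPKM, where fewer genes are tested. Partner genes higher, 2 as reported, were 1 with median-gene scaling, 0 with no filter or both libraries out, 4 with the filter at 5 RPKM or protein-coding genes only, and 0 to 4 with 1 library left out. Partner genes lower, 6 as reported, were 8 with quantile normalization, 7 with median-gene scaling, 1 with no filter, 3 without the variance trend, 0 with both libraries out, and 1 to 6 with 1 library left out. With 1 library left out, the difference in log2 ratio ranged over -0.002 to 0.061 for Grin2a to Grin2b, -0.096 to 0.02 for Gria1 to Gria2 and -0.063 to 0.038 for Gabbr1 to Gabbr2. Over all genes, 842 were called as reported, 169 with no filter, 104 with both libraries out and 98 to 867 with 1 library left out. Except where stated, the cause was not tested. Same-numbered libraries did not deviate together (correlations of -0.21, 0.02 and -0.14), so the numbers were not taken as pairs; with the replicate block 157 genes, 0 subunits, 0 partner genes higher and 1 lower passed. Among the 32 subunits Grm8 had the fewest reads, at 50 to 104 a library.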
